A study of Mus musculus with 2 samples.

Results

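Of 87757 accessible sites found in both replicates of embryonic mouse midbrain, 3626 lay within masked repeats. Accessible sites were peaks of DNase-seq, an assay that maps where the nuclease DNase I can reach and cut the DNA of nuclei. On chromosomes 1 to 19, deposited peaks of both replicates that overlapped by at least 1 bp were merged into 574914 regions, and a region holding a peak of each replicate was called a shared site. A shared site was called masked when 50% or more of the 150 bp around its midpoint was written in lower case, the mark for repeats, in the RefSeq sequence of GRCm38.p6, which holds the mm10 chromosomes. Shared sites with no lower-case base in that window numbered 51068 and are called unmasked, and the other 33063 were partly masked. The program that masked the sequence is not given in the sources used here, and the sequence came without repeat names, so sites were grouped by their own letters.

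The series held 1 group of 2 biological replicates of midbrain tissue at embryonic day 11.5, from embryos of the strain B6NCrl with both sexes pooled. No input, control tissue or expression readout was analysed here, so the tissue label could not be checked against its marker genes. The authors deposited a peak list per replicate with a whole-number signal for each peak, of no stated unit, and a hotspot list with a q-value for each wider region of raised cutting. Replicate 1 had 300618 peaks on these chromosomes with a median signal of 18, and replicate 2 had 447681 with a median of 8, so signals are given per replicate throughout.

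Masked repeats are mostly copies of transposable elements and short tandem repeats. In rodents the commonest short elements are the B1 and B2 families of SINEs, which are copied by RNA polymerase III from an internal promoter made of an A box and a B box. Most copies are held in closed chromatin by DNA methylation and by repressive histone marks. Some carry binding sequences of transcription factors. B2-type elements of rodents are known for spreading a sequence bound by CTCF, a zinc finger protein that marks loop anchors and insulators.

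In the largest sequence family among masked sites, 430 of 596 windows carried a 12-letter core like the CTCF motif, with any base allowed at letter 5. The sequences below are 150 bp windows in GRCm38.p6 (mm10), written on the strand that carries the core, with the core in capitals. They are shown because they share this core and much of the sequence around it.
Family 1, centre (chr2:25663646-25663795, plus strand, intergenic, 5766 bp from the start of Lcn5): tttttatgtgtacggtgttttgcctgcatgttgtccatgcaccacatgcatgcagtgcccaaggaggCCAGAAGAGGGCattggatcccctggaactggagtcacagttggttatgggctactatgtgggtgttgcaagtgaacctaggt
Family 1, near Edrf1 (chr7:133636806-133636955, minus strand, intergenic): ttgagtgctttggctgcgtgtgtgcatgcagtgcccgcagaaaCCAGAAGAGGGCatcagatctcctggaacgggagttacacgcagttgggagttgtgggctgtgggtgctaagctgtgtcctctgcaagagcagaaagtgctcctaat
Family 2, centre (chr1:178242166-178242315, minus strand, intron of Desi2): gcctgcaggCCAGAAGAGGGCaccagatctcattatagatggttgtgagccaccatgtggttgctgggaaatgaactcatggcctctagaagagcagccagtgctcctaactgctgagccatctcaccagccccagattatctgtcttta
The centre of a family is the window with the most matches to other masked windows. Signals at the centre of family 1 were 34 in replicate 1 and 18 in replicate 2. The site near Edrf1, the strongest of the family with a core by mean percentile of signal, had 83 and 54. The centre of family 2 had 17 and 7.

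A further set of windows shows the B1-like family, with the B box in capitals. The B box was searched as GTTCNANNC, where N is any base.
Family 3, centre (chr10:12921896-12922045, plus strand, intergenic, 42288 bp from Stx11): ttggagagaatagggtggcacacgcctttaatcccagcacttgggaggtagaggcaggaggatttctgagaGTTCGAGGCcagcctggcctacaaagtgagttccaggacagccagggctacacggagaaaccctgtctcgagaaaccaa
Family 3, near Taf12 (chr4:132269806-132269955, minus strand, intergenic, 4494 bp from its start): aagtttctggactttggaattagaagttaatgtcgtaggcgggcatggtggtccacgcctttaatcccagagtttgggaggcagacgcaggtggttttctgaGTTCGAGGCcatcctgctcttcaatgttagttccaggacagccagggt
Signals were 28 and 26 at the centre and 124 and 66 near Taf12, in replicates 1 and 2. Other masked sites were built of short tandem repeats. The strongest with tandem repeats over at least 50% of the window lay in intergenic sequence 15242 bp from Tex44, with signals of 89 and 51.
Tandem site near Tex44 (chr1:86441496-86441645, plus strand): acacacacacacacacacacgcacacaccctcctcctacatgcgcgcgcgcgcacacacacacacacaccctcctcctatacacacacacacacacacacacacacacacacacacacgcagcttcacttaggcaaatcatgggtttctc

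Masked sequence was rarer among shared sites than in the genome. Masked sites made up 4.13% of shared sites (95% Wilson interval 4 to 4.27%), while 28.2% of all 150 bp tiles of these chromosomes were masked by the same rule. Regions with a peak in replicate 1 only were masked in 13.2% of cases, and those of replicate 2 only in 14.3%. Across chromosomes the masked share of shared sites ranged from 3.61% on chromosome 12 to 5.10% on chromosome 5. All intervals and odds ratios here cover counting error only, because neighbouring sites and copies of a repeat are not independent. Read depth is unknown.

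Masked regions were shared between replicates less often than unmasked ones. Of 71136 masked merged regions, 3626 (5.10%) held a peak of each replicate, against 51068 of 255459 unmasked regions (20%), an odds ratio of 0.215 (95% interval 0.208 to 0.223), below 1 on all 19 chromosomes. Over all merged regions the share was 15.3%. The difference depended on signal. Merged regions with a peak in replicate 1 were split into 10 bins of signal. In bin 1 of 10, with signals of 1 to 4, 2.59% of masked and 3.68% of unmasked regions had a peak in replicate 2. In bin 8, with signals of 35 to 49, the shares were 59.8% and 51.1%, an odds ratio of 1.43 (1.26 to 1.62). In bin 9 they were 82.1% and 70.4% (1.93, 1.57 to 2.37), and in bin 10, which held 209 masked regions, 81.3% and 87.6% (0.620, 0.436 to 0.880). Starting from replicate 2, masked regions were shared less often in bins 1 to 8, with odds ratios from 0.537 to 0.782, and the intervals of bins 9 and 10 held 1. Masked regions with peaks of middle to high signal in replicate 1 were therefore found again as often as unmasked ones or more often, up to bin 9, and weak ones were not.

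**Figure D1:**
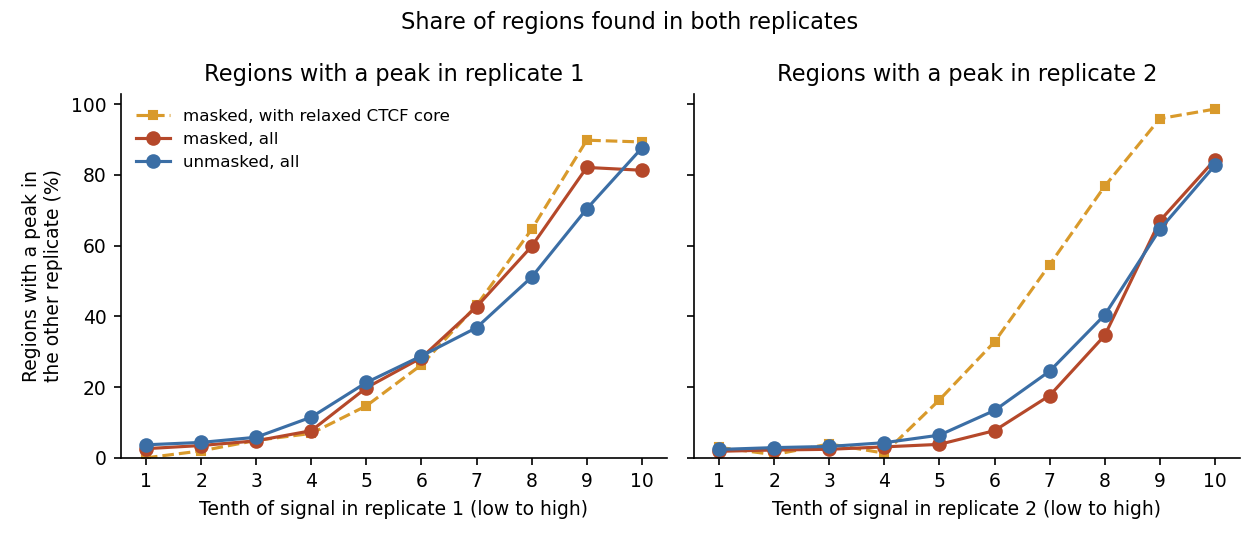
Share of merged regions with a peak in the other replicate (y axis, %) by bin of signal in the named replicate (x axis, 1 to 10), for masked regions with the relaxed CTCF core (squares; bins of at least 20 regions), all masked regions and all unmasked regions. The masked line crosses above the unmasked one in bins 7 to 9 of replicate 1, and in replicate 2 both lie close together from bin 9.

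Signals at masked shared sites were lower in both replicates. Their median signal was 28 in replicate 1 (quartiles 15 and 44), against 53 (31 and 84) at unmasked sites. In replicate 2 it was 16 (9 and 25), against 30 (17 and 52). Of masked sites, 18.9% lay above the median signal of all shared sites in replicate 1, against 53.8% of unmasked sites, an odds ratio of 0.201 (0.184 to 0.218). In replicate 2 the shares were 19.7% and 54.2% (0.208, 0.191 to 0.226), and both held on 19 of 19 chromosomes. A signal of 100 or more was reached in replicate 1 by 1.05% of masked and 16.9% of unmasked sites. Across masked sites the signals of both replicates had a Spearman correlation of 0.817 (n = 3626 sites), against 0.792 across unmasked sites, as a description.

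The share of 32-mers in the window that occur once on chromosomes 1 to 19, X and Y, a measure of how well short reads can be placed, had a median of 94.1% at masked sites and 100% at unmasked sites. Among masked merged regions, the share found in both replicates went with it: 1.06% where at most 25% of 32-mers occurred once (943 regions) and 6.89% where all did (18147 regions). At the 1251 masked sites in which every 32-mer occurred once, the median signals were 32 and 18 in replicates 1 and 2. At the 2375 other masked sites they were 25 and 15, and at the 49509 unmasked sites with every 32-mer once they were 54 and 30. Restricted to windows with every 32-mer once, the odds ratio of a signal above the median was 0.230 in replicate 1 and 0.251 in replicate 2, so the lower signals were also present there.

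Signal was lower where more of the window was masked. The 2390 sites masked over 50% to under 75% of the window had medians of 30 and 18 in replicates 1 and 2, the 1016 masked over 75% to under 100% had 24 and 14, and the 220 that were masked throughout had 11 and 8. Just inside the limit, the 743 sites masked over 50 to under 55% had medians of 32 and 19. Just outside it, the 744 sites masked over 45 to under 50% had 36 and 19. The strongest sites at 50% were at the promoter of Rbfox3, with signals of 72 and 65, and 17409 bp from Rdm1, with 81 and 47. The midpoint of the site near Rdm1 lay in no hotspot in either replicate. The strongest at 49.3% were at the promoters of Cxxc4, with 123 and 82, and Abi1, with 127 and 72. The masked runs were short: 78.7% of masked sites had their midpoint inside one, and its median length was 86 bp (quartiles 54 and 147 bp).

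**Figure D2:**
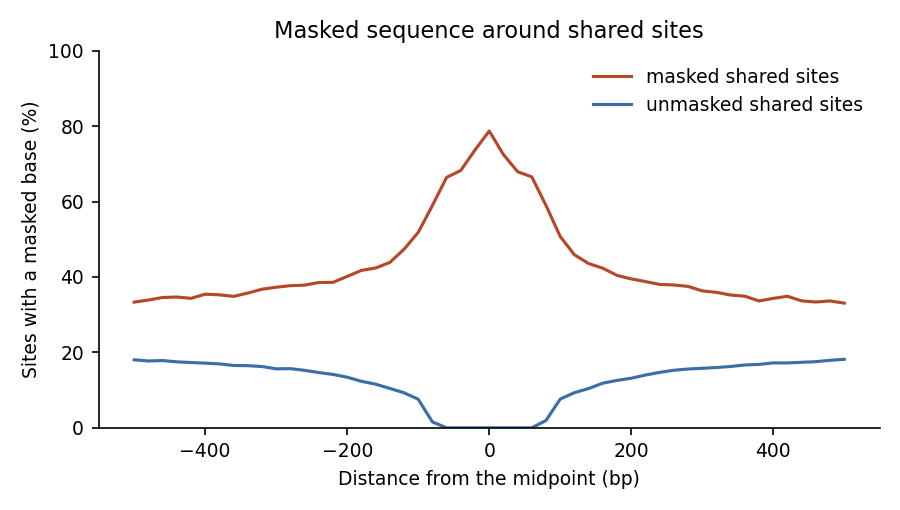
Share of shared sites with a masked base (y axis, %) at each distance from the site's midpoint (x axis, bp, plotted every 20 bp) for 3626 masked and 51068 unmasked sites. At the midpoint 78.71% of masked sites had a masked base, and at -500 bp on the x axis 33.34% had one. Unmasked sites had 0 at the midpoint by their definition and 18.04% at -500 bp.

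Promoters were rare among masked sites. A midpoint within 500 bp of the transcription start site (TSS) of a protein-coding gene was found at 165 of 3626 masked sites (4.55%), against 11609 of 51068 unmasked sites (22.7%) and 18.8% of all shared sites. The odds ratio was 0.162 (0.138 to 0.190), below 1 on 19 of 19 chromosomes. Exons of protein-coding genes held 1.35% of masked and 5.66% of unmasked sites. Introns held 40.2% and 33.6% (odds ratio 1.33, 1.24 to 1.42, on 17 of 19 chromosomes), but among sites over 2.5 kb from every TSS they held 40.6% and 40.8% (0.993, 0.920 to 1.07). Intergenic sequence held 53.9% of masked and 38.0% of unmasked sites (1.91, 1.79 to 2.04, on 19), and 58.3% and 54.0% of those over 2.5 kb from a TSS (1.19, 1.11 to 1.29, on 16). The median distance to the nearest TSS was 18944 bp for masked and 11915 bp for unmasked sites.

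Lower signals at masked sites were seen in each position class. At promoters the median in replicate 1 was 39 at 165 masked sites, against 105 at unmasked sites, and in replicate 2 it was 33, against 66. In introns the medians were 30 and 44 in replicate 1 and 17 and 23 in replicate 2, masked sites first. In intergenic sequence they were 25 and 46 in replicate 1 and 15 and 23 in replicate 2. Within introns the odds ratio of a signal above the median of all shared sites was 0.304 (0.266 to 0.348) in replicate 1 and 0.353 (0.309 to 0.403) in replicate 2.

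**Figure D3:**
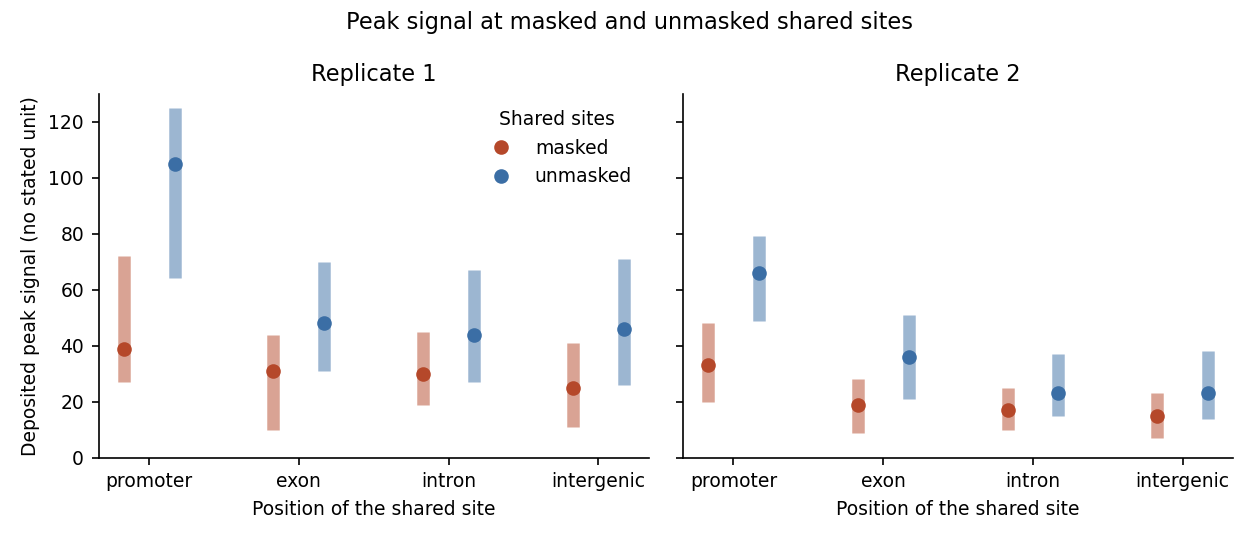
Deposited peak signal (y axis, no stated unit) by position class (x axis) at masked and unmasked shared sites in each replicate. Points are medians over sites and bars run from the first to the third quartile; in all 4 position classes and both replicates the masked median lies below the unmasked one.

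The hotspots around masked sites were narrower and carried weaker q-values. The midpoint lay in a hotspot at 90% of masked and 95.7% of unmasked sites in replicate 1, and at 89.9% and 95.4% in replicate 2. The hotspot's deposited −log10 q-value stood at the ceiling of 100 for 41.8% of masked and 66.4% of unmasked sites in replicate 1, and for 32.6% and 60.1% in replicate 2. Median hotspot widths were 244 bp at masked and 421 bp at unmasked sites in replicate 1, and 259 bp and 749 bp in replicate 2.

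The masked sites with the highest mean percentile of signal were nearly all promoters. At the promoter of Fiz1, a zinc finger protein gene, the site chr7:5014696-5014905 had signals of 133 and 93 in replicates 1 and 2 and was 51.3% masked. Its midpoint lay inside the gene Zfp524. At Fbxl20, which encodes an F-box protein, chr11:98149576-98149745 had 131 and 86. The promoter of Wdr77, a partner of the arginine methyltransferase Prmt5, had 132 and 82, at a site with its midpoint in an exon of Atp5f1. Ldb1, a cofactor of LIM-domain transcription factors, had 131 and 76 at its promoter. Pafah1b1, the lissencephaly gene needed for neuronal migration, had 120 and 100 at a window of 80% GC that was 50.7% masked. The promoters of Zfp467, Nr4a3, Zfp827 and 2510009E07Rik completed the 9 promoters among the first 10. Nr4a3, an orphan nuclear receptor gene, had 119 and 79 at a window with AC repeats over 26% of its length. The single site outside promoters was chr2:30693256-30693445 in intergenic sequence, 98311 bp from Cstad, with 132 and 67. Windows of these 10 sites were between 50.7% and 78.7% masked, and none held the CTCF core or a B box. Little of their sequence was repeated: every 32-mer occurred once except near Cstad (85.7% did), Nr4a3 (76.5%) and Zfp827 (88.2%). The median genome count of a window's 16-mers was from 2 to 9.

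In exons the strongest masked site, chr14:122464816-122464985 in Zic5, a zinc finger gene of neural development, had signals of 99 and 88. The next, chr8:108703736-108703905 in Zfhx3, a homeobox gene, had 97 and 77. In introns, the strongest was a site in Ddc, the gene of dopa decarboxylase, with 127 and 53; its nearest TSS was that of Fignl1, 12799 bp away. The next, with the strict form of a CTCF core, had 98 and 77 and lay in an intron of the gene model Gm20388, 24818 bp from the TSS of Rhou. Among the 220 sites masked throughout, the strongest lay in introns of Nphs1, 15591 bp from the TSS of Prodh2, with 74 and 39, and of Acvrl1, a TGF-beta family receptor gene, with 61 and 43. The midpoint of the Acvrl1 site lay in no hotspot in either replicate.

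A CTCF-like core was present in many masked windows, in a form that differed from that of unmasked sites. The core was searched on both strands in 2 forms: a strict form, which takes C or T at letter 5, and a relaxed form, which takes any base there. The strict core was in 4.38% of masked and 5.96% of unmasked windows, an odds ratio of 0.724 (0.615 to 0.852), below 1 on 17 of 19 chromosomes. The relaxed form was chosen after the sequences of masked families were seen, so its frequency is a description and no evidence of an excess. The relaxed core was in 913 of 3626 masked windows (25.2%), against 3889 of 51068 unmasked windows (7.62%) and 9.25% of all shared sites. Cores that the relaxed form alone takes were in 20.8% and 1.66%. The gap depended on which peaks were used: without replicate 1 the relaxed core was in 3.67% of masked and 2.22% of unmasked windows (odds ratio 1.68), without replicate 2 in 8.29% and 3.38% (2.59), and with the stronger 50% of peaks in 35.7% and 8.46% (6.02), beside 4.08 for shared sites. When the sites were limited to the stronger 50% of peaks of each replicate, the strict core no longer differed beyond its interval, with 6.40% and 6.62% (odds ratio 0.965, 0.815 to 1.14). The core lay close to the midpoint, with a median distance of 17 bp in masked and 14 bp in unmasked windows. Within 20 bp of it were 57.7% and 64.5% of cores, and an even spread over the window would give 29.0%.

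Masked sites with the relaxed core had higher signals than those without. Their median was 38 in replicate 1 and 20 in replicate 2, against 24 and 14 at the 2713 masked sites without it. Unmasked sites with the core had 68 and 36. Only 1.20% of masked core sites were promoters, and their median distance to a TSS was 13902 bp. The strongest masked site with the strict core after the one near Rhou was intergenic, 18329 bp from Utp11, with signals of 85 and 59. Their cores differ from those of family 1, as the windows show, with the core in capitals.
Site near Rhou, in an intron of Gm20388 (chr8:123629036-123629185, plus strand): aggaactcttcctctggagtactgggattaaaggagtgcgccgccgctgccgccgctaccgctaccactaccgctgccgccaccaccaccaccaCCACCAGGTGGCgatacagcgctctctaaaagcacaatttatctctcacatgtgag
Site near Utp11 (chr4:124675196-124675345, minus strand): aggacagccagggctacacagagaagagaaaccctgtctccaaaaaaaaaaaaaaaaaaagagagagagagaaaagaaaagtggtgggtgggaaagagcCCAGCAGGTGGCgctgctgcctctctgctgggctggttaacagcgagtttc

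Whether a masked region was found in both replicates went with the core. Of 3132 masked merged regions with the relaxed core, 29.2% were shared (27.6 to 30.8%), against 3.99% of the 68004 without it. The relaxed form was chosen after the sequences of shared masked sites were seen, so this difference is a description. With the strict core, whose form was not read from these sites, the share was 46.1% of 345 regions (40.9 to 51.4%), an odds ratio of 16.6 (13.4 to 20.6) over masked regions without it, above 1 on 19 of 19 chromosomes. Unmasked regions with the relaxed core were shared more often than masked ones, 83.3% of 4666 regions, and those without it in 18.8% of cases. In the signal bins of replicate 2, masked regions with the relaxed core were shared in 95.9% of cases in bin 9 and 98.6% in bin 10, against 67.0% and 84.3% for all masked regions. The bins of replicate 1 showed less difference. There 14.7% with the core and 19.8% of all masked regions were shared in bin 5, and 26.3% and 28.3% in bin 6. In bin 7 the shares were 43.1% and 42.7%, and in bin 9 they were 89.8% and 82.1%.

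One 12-letter form made up most of the masked cores. CCAGAAGAGGGC was the first core found in 548 of the 913 masked core sites (60%) and in 5 of the 3889 unmasked ones (0.129%). The commonest cores of unmasked sites, CCACCAGGGGGC with 366 sites and CCAGCAGGGGGC with 327, were found in 3 and 5 masked sites. The letters around the masked core were also alike. Where the commonest letter is written if it is found in at least 50% of windows and n otherwise, the 820 masked windows with enough sequence on both sides of the core and the 3611 unmasked ones read as follows, with the core in capitals.
Masked core sites: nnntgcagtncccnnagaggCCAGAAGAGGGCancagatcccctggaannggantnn
Unmasked core sites: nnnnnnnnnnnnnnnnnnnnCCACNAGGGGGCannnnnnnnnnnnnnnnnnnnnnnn
Of 45 positions outside the core, 33 had such a majority letter in masked and 1 in unmasked sites.

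Most genome copies of this core lay outside the shared sites. Whether reads could be placed at the copies without a peak was not tested, so these copies cannot be called closed. On chromosomes 1 to 19, CCAGAAGAGGGC occurred 48147 times in fully masked letters, and 1012 copies (2.10%) lay inside a shared site. CCAGCAGAGGGC occurred 845 times in masked letters, with 244 copies (28.9%) inside a shared site, and 978 times in unmasked letters, with 431 copies (44.1%) inside. CCACAAGAGGGC was inside a shared site for 13.4% of 551 masked copies and 44.8% of 534 unmasked copies. At masked sites that held CCAGCAGAGGGC the median signals were 40 and 21.5 in replicates 1 and 2, and at those that held CCAGAAGAGGGC they were 36 and 19.

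Copies of the repeat that differed from the common core at 1 letter were then compared. Counted were masked copies whose surroundings matched at least 20 of the 33 majority letters above, for the common core and for its 36 single substitutions, 31 of which had 50 or more copies. The majority letters and the common core were read from shared sites that hold the relaxed form, so the level of the common core is a description. The same holds for the contrast of substitutions inside and outside the relaxed form. The common core had 10002 such copies, of which 578 (5.78%) lay inside a shared site. Substitutions are given as the common core's base, its position counted from 1 at the core's 5′ end, and the copy's base. G4C was inside a shared site for 20.9% of 225 copies (16.1 to 26.7%), A5C for 19% of 290 (14.9 to 23.9%), A5T for 17.2% of 128 (11.6 to 24.7%), A8G for 13.2% of 417 (10.3 to 16.8%) and A5G for 10.4% of 376 (7.68 to 13.9%). Each of these 5 intervals lay above the interval of the common core, 5.34 to 6.25%. The 5 substitutions stay within the relaxed form of the core, and the sixth that does, G9T, had 7.14% (4.72 to 10.7%).

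Substitutions that leave the relaxed form were mostly lower. The 25 with enough copies were inside a shared site for 2.05% of 11963 copies in all, ranging from 0 to 5.88%. G7A was inside for 2 of 557 copies (0.359%), G9A for 3 of 934 (0.321%), G10A for 3 of 800 (0.375%) and G11A for 3 of 961 (0.312%). C2T, at the second letter, was inside for 1 of 403 (0.248%). By contrast C12A, at the last letter, had 5.88% of 629 copies and G4A had 4.92% of 549, both within the interval of the common core or overlapping it. The order was similar in each replicate's own peaks. A peak of replicate 1 covered 11.9% of copies of the common core, 28.4% of G4C, 29.0% of A5C and 1.26% of G7A copies. A peak of replicate 2 covered 8.37%, 24%, 22.4% and 1.62% of them.

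Copies with a substitution were on average in rarer sequence. The median over the window of how often its 16-mers occur in the genome was 18 for copies of the common core, 10 for G4C, 8 for A5C and 13 for G7A. Among copies with a median of 10 or less, 12.5% of 3660 with the common core lay inside a shared site, against 30.4% of 115 with G4C, 24.3% of 173 with A5C, 27.8% of 54 with A5T, 18% of 245 with A8G and 0.415% of 241 with G7A. A5G, with 15.1% of 212, was then close to the common core, and G9T, with 11.4% of 158, and C12A, with 8.72% of 367, were below it. The part of sequence rarity in the remaining difference was not tested.

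**Figure D4:**
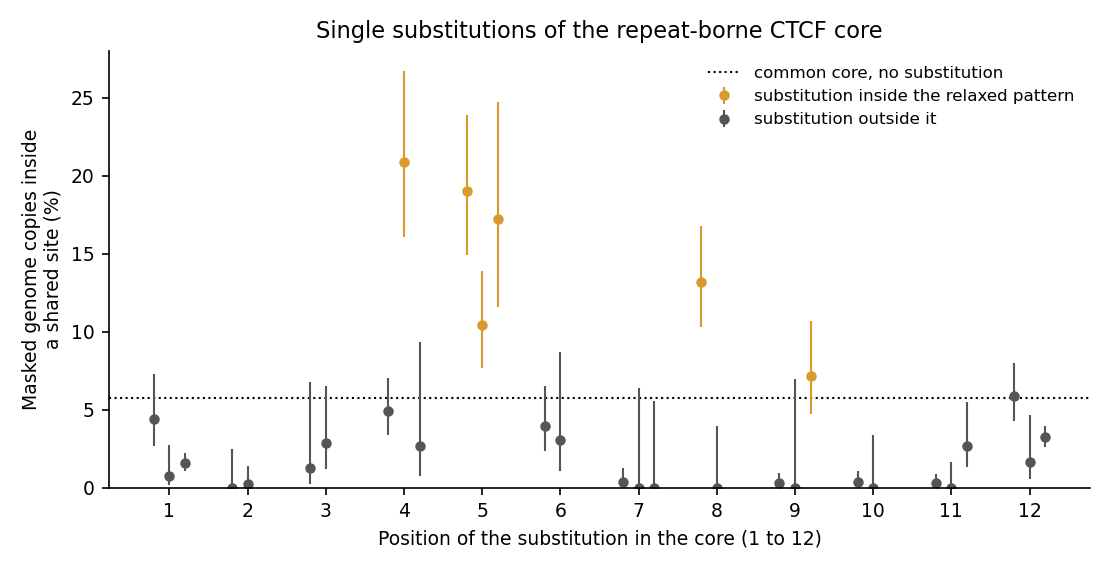
Share of masked genome copies inside a shared site (y axis, %) for each single substitution with 50 or more copies, by its position in the 12-letter core (x axis); bars are 95% Wilson intervals and the dotted line is the common core at 5.78%. Substitutions inside the relaxed form lie above the line at positions 4, 5, 8 and 9, and those at positions 2, 7, 10 and 11 lie below it.

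Masked sites also carried the B box more often. It was in 522 of 3626 masked windows (14.4%), against 2127 of 51068 unmasked windows (4.17%) and 4.82% of all shared sites, an odds ratio of 3.87 (3.49 to 4.29) on 19 of 19 chromosomes. The gap was not particular to shared sites. Without replicate 1 the B box was in 13.3% of masked and 4.83% of unmasked windows, and without replicate 2 in 11.9% and 4.30%. The A box, the other promoter element of RNA polymerase III, was in 12.9% and 13.1%. Unlike the CTCF core, the B box went with little difference in whether a masked region was shared, 5.78% of 9035 masked regions with it and 5% of 62101 without. Of 27 motifs searched, 4 were more frequent in masked windows by an interval above 1 and 13 less frequent. The 4 were the B box, the E-box CATCTG, the YY1 sequence AAGATGGC and the MEF2 motif. CATCTG changed direction among distal sites, with 14.7% of masked and 15.7% of unmasked windows, and with either replicate alone, and AAGATGGC did so at the 220 sites masked throughout. The interval of AAGATGGC held 1 when 75% masking was asked for (0.672 to 1.73), when peaks had to overlap by 75 bp (0.964 to 1.69) and with the stronger 50% of peaks (0.954 to 1.77). The MEF2 motif was in 1.60% of masked and 0.599% of unmasked windows (odds ratio 2.70, 2.03 to 3.58, on 16 of 19 chromosomes).

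Motifs of promoters were depleted. The GC box GGGCGG, bound by SP factors, was in 4.30% of masked and 20.3% of unmasked windows (odds ratio 0.177, 0.150 to 0.208). The ETS sequence CCGGAAGT was in 0.110% and 1.54%, and the cyclic AMP response element TGACGTCA in 0.165% and 0.926%. More than 2.5 kb from every TSS, the GC box was in 3.4% of 3002 masked and 8.63% of 32649 unmasked windows. The neural E-box CAGCTG was in 7.12% of masked and 14.2% of unmasked windows, and in 7.20% and 16.1% of distal ones (0.403, 0.350 to 0.465). The Sox sequences ACAAAG and ACAATG were in 12.2% and 7.06% of distal masked windows, against 16.7% and 10.2% of distal unmasked ones. At sites masked throughout both changed direction, with odds ratios of 1.37 (0.966 to 1.93) and 1.33 (0.862 to 2.05). Base composition differed too, with a median GC content of 48.7% in masked and 54.7% in unmasked windows, and no CpG in 26.4% and 7.29% of them.

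In copy number, 369 masked windows (10.2%) and 0 of 51068 unmasked windows had a median 16-mer count over 100. Tandem repeats with units of 1 to 6 bp covered 25% or more of 325 masked windows (8.96%) and of 1 unmasked window, and 50% or more of 20 masked windows. Masking is close to a measure of repetition, so these shares describe the masking as much as the sites. The AC unit accounted for 178 of the 325 and the AG unit for 88. Windows of this kind had higher signals than masked sites as a whole, with medians of 40 and 25 in replicates 1 and 2, and 10.8% of them were promoters. Sites with a high-copy window were led by chr9:91377476-91378045 in an intron of Zic4, which held AG repeats and had signals of 106 and 58, and by chr9:65201416-65201685 in an intron of Parp16, with 88 and 54. The midpoint in Zic4 lay in no hotspot in replicate 1, and in replicate 2 in one with a −log10 q-value of 3.76. This region was wider than its 150 bp window, so its highest peaks may lie outside the window.

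Masked windows were spread over many sequence families, of which the 34 with 10 or more windows held 48.8%. Windows matching over at least 50 bp were joined; joining through chains put 2286 of 3626 windows into 1 group, and groups made of a centre and its direct matches were used instead. No match was found for 1002 windows (27.6%). Family 1 held 596 windows (16.4%), with median signals of 36 (range 4 to 88) in replicate 1 and 21 (2 to 61) in replicate 2. The relaxed core was in 430 of them (72.1%) and the strict core in 29. The family was divided between introns, with 302 windows, and intergenic sequence, with 281, and had 2 promoters.

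Family 2 held 341 windows (9.40%), with medians of 30 and 16, of which 158 matched annotated 4.5S RNA pseudogenes best. The relaxed core was in 187 (54.8%) and the B box in 159 (46.6%). Family 3 held 192 windows (5.30%), and 178 matched the annotated B1_Mus2 element. Its medians were lower, 20 and 15, the relaxed core was in 2 windows, and the B box was in 93 (48.4%). Family 5, with 45 windows and medians of 40 and 17, had neither core nor B box and no annotated match. Across all masked merged regions, 3.97% of 5494 that matched B1_Mus2 best were shared (3.48 to 4.52%), against 6.78% of 2668 that matched 4.5S RNA pseudogenes (5.89 to 7.80%).

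Masked sites overlapped some known enhancers. Of 617 mouse elements of the VISTA collection, which tests enhancers in transgenic embryos, 334 held a shared site and 14 a masked one. Of the 599 shared sites in these elements 14 (2.34%) were masked, a lower share than the 4.13% of all shared sites. The 14 sites had signals from 17 to 112 in replicate 1 and from 14 to 59 in replicate 2. Annotated activity included the forebrain, midbrain or hindbrain for 10 of the 14 (71.4%), against 207 of the 334 elements with a shared site (62.0%), and the midbrain for 3 (21.4%), against 133 (39.8%). The midbrain elements were mm1460 in an intron of Plekha6, with signals of 27 and 32 in replicates 1 and 2, mm1456 far from Dio3, with 22 and 23, and mm1610 in an intron of Cemip2, with 56 and 27. Near Sox2, the neural progenitor gene, a masked site of family 3 with signals of 19 and 15 lay in the enhancer SRR18, annotated in embryonic stem cells. Masked sites also covered 2 tRNA genes on chromosome 13, n-TAagc18 with 37 and 20 and n-TAcgc10 with 64 and 52.

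Near genes of the developing brain few distal sites were masked. Sites with no TSS within 2.5 kb, called distal, were assigned to the nearest TSS up to 100 kb away. Over all genes 2366 of 43877 such shared sites were masked (5.39%). Near 16 genes of midbrain and isthmus identity the count was 3 of 280 (1.07%, 0.365 to 3.10%). Near 14 neural progenitor genes it was 8 of 291 (2.75%, 1.40 to 5.33%), and near 14 neuronal differentiation genes 3 of 143 (2.10%, 0.716 to 5.99%). The sequence near these genes was itself less masked, with 18.5%, 23.4% and 18.6% of tiles, against 27.4% over all genes.

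Single masked sites near these genes had varied signals. Near Pax3, a paired-box gene of the dorsal neural tube, an intronic site had signals of 76 and 61 in replicates 1 and 2. Near Wnt1, a signal of the midbrain-hindbrain boundary, a site of family 1 with the relaxed CTCF core, 3916 bp from the TSS, had 40 and 25. For Gbx2, a homeobox gene of the same boundary, the site lay in an intron of Asb18, 31062 bp from the Gbx2 TSS, and had 62 and 24. Near Gap43, a growth cone protein gene, an intronic site with AG repeats had 102 and 56.

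Masked shares were higher near large gene families that lie in clusters. Near genes named Zfp, most of them zinc finger genes, 76 of 788 distal shared sites were masked (9.64%, 7.78 to 11.9%). Near olfactory receptor genes it was 25 of 181 (13.8%, 9.53 to 19.6%), and near vomeronasal receptor genes 21 of 83 (25.3%, 17.2 to 35.6%). The tiles there were masked in 32.7%, 54.5% and 56.3% of cases. Near 14 housekeeping genes the count was 4 of 42 (9.52%), and near 15 genes of repeat silencing 1 of 20 (5%), a family 1 site in an intron of Tbc1d12, 15084 bp from the TSS of Hells, with 47 and 12. Masked regions were shared between replicates in 8.54% of cases near Zfp genes, 4.22% near olfactory receptor genes and 4.71% near vomeronasal receptor genes, against 5.75% over all genes. For unmasked regions these shares were 20.9%, 15.5% and 11.5%, against 17.9%. Near the midbrain, neural progenitor, neuronal differentiation, housekeeping and repeat silencing lists, masked regions were shared in 3.85%, 11.4%, 4.76%, 21.1% and 2.94% of cases.

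**Figure D5:**
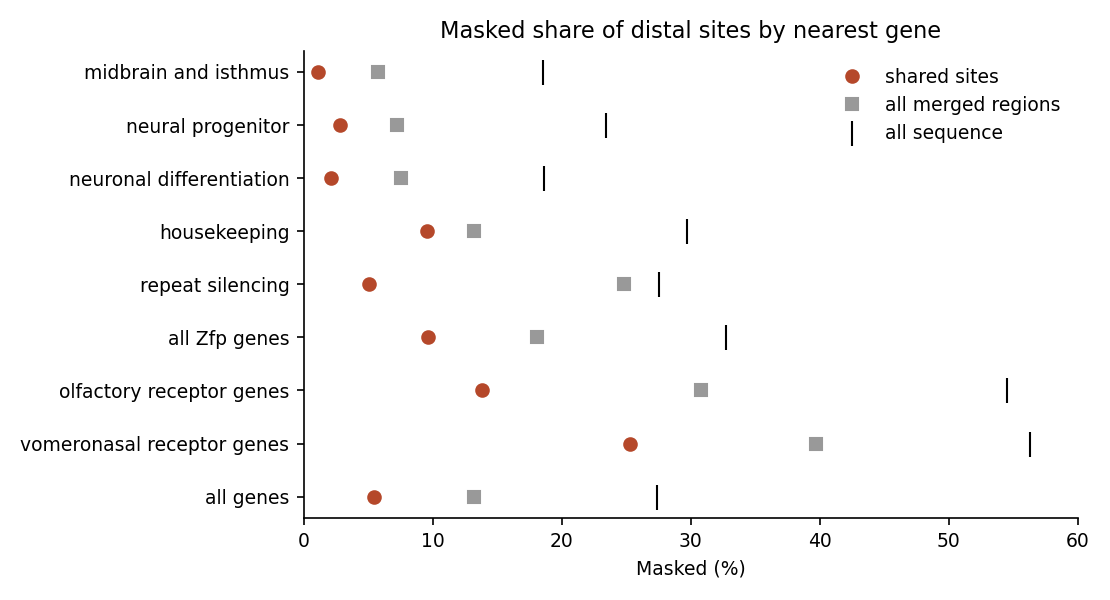
Masked share (x axis, %) of distal shared sites, of all distal merged regions and of all 150 bp tiles, by the list of the nearest gene (y axis). In each list shared sites lie lowest and all sequence highest, and the lists with the most masked sequence, the receptor gene families, also have the highest masked share of shared sites.

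The genes with the most distal masked sites were Chn1 and Srek1, with 9 each, out of 27 (33.3%) and 31 (29.0%) distal shared sites. Over all genes the masked share was 5.39%. The masked sites near Chn1, which encodes a signalling protein of axon guidance, were all in introns of protein-coding genes. They were weak, with signals of 4 to 17 in replicate 1 and 2 to 9 in replicate 2. Those near Srek1 had 3 to 8 and 1 to 9. Stronger groups lay near Sfi1, a centrosome gene, where 7 of 21 distal shared sites (33.3%) were masked. These 7 had signals of 24 to 78 in replicate 1 and 10 to 36 in replicate 2, and 4 of them were of 1 family. All 5 distal shared sites of 2010315B03Rik were masked, with 37 to 97 and 30 to 63, and 4 of them were of 1 family. Near Zfp64, 6 of 19 distal shared sites (31.6%) were masked. These 6 had signals of 30 to 50 in replicate 1 and 20 to 36 in replicate 2, and 4 of them held the relaxed CTCF core. The share of 32-mers that occur once ranged from 58.8 to 100% near Sfi1, from 26.9 to 93.3% near 2010315B03Rik and from 53.8 to 100% near Zfp64.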

How the data were processed

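DNase-seq peaks and hotspots of 2 midbrain replicates, 1 group, were analysed. The authors deposited, per replicate and in mm10 coordinates, a peak list with a signal value of no stated unit and a hotspot list with −log10 q-values; each list was made from that replicate's alignments alone, per the file headers. No source used here names the aligner, the peak caller or its filters, or gives the depth, so how reads with several genome matches were treated is unknown, and this affects masked sequence directly. Sequence, lower-case masking and annotated enhancers, tRNA genes and repeats came from RefSeq GRCm38.p6, and genes from the GENCODE vM21 basic set. A site's nearest gene is that of the nearest TSS and need not be the gene it lies in.

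Rows repeated in a list (50 in replicate 1, 104 in replicate 2) were dropped. A region's signal was the highest of its peaks in a replicate. Shares carry 95% Wilson intervals and odds ratios 95% Woolf intervals, for counting error only; sites were not treated as replicates, and the number of chromosomes with the same direction is given beside them. With 1 group there was no test between conditions. Whether the replicates came from separate litters is not given. Promoters were within 500 bp of a protein-coding TSS and distal sites over 2.5 kb from every one. Repetition was counted with 16-mers and 32-mers over both strands. Windows were matched with blastn 2.17.0 (E-value 1e-05, at least 50 bp). Python 3.11.15, numpy 2.4.6, pandas 2.3.3, scipy 1.17.1, numba 0.67.0 and matplotlib 3.10.9 were used, and counting steps were tested on simulated data.

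The members, gene lists and motifs were chosen with earlier results of these data known. Named sites were the 10 with the highest mean percentile of signal, the 2 highest in each position class, sequence class and large family, and the 2 nearest each side of the masking limit; named genes were their nearest genes and the 10 with the most distal masked sites. Sites with the CTCF core, those masked throughout and those near list genes or annotated elements were added after the values were seen. So were groups of a centre and its matches, the relaxed core, its substitutions, position strata and the limit to windows with every 32-mer once. Some named sites and genes are not reported here.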

Additional observations from a re-analysis of the deposited data

How the results depend on the processing

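No paired analysis was possible because the series holds 1 group. Masked sites were 4.13% of shared sites, 1.41% when masking of 75% or more was asked for, 0.251% at 100%, 4.37% when peaks had to overlap by 75 bp and 3.14% with the stronger 50% of peaks. With the peaks of 1 replicate alone the share was between 10.3% and 12%. A change of direction is counted for a motif whose odds ratio crossed 1 and whose interval left out 1 before or after; odds ratios with intervals that held 1 both times also crossed it. At 100% masking, 3 motifs were less frequent in masked windows, against 13, and 3 motifs changed direction (Sox ACAAAG 1.37, Sox ACAATG 1.33 and YY1 0.165), with 220 sites. Among distal sites CATCTG (0.927) and TAATTA (0.789) changed direction. With 1 replicate alone so did CATCTG (0.896 to 0.941), AP-1 (0.817 to 0.826), CCAAT (1.07 to 1.14), the POU octamer (1.01 to 1.27), GATA (0.881 to 1.03), the A box (1.01 to 1.05) and TAATTA (0.876 to 1.11), each in at least 1 of both cases. The largest sequence family held 2286 windows when chains of matches were joined and 596 around 1 centre. The causes were not tested. The odds ratios for a signal above the median (0.0409 to 0.304 in replicate 1, 0.0575 to 0.353 in replicate 2), promoter position (0.0875 to 0.261), sharing between replicates (0.0822 to 0.446) and GC content above 50% (0.178 to 0.437) kept their direction with intervals that left out 1 under each alternative run, bins of signal aside. Within bins of signal, the odds ratio of sharing rose above 1 in bins 7 to 9 of replicate 1 (1.28 to 1.93). Its interval held 1 in bins 5 and 6 of replicate 1 and bins 9 and 10 of replicate 2. The odds ratio of the relaxed CTCF core, 4.08, was between 1.68 and 2.59 with 1 replicate alone. Unknown depth and read placement limit all comparisons of masked with unmasked sequence.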
